A study of Caenorhabditis elegans with 2 samples.

Results

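Basic helix-loop-helix (bHLH) and basic leucine zipper (bZIP) proteins are transcription factor families, and the question here was which of their genes carried peaks of the nuclear hormone receptor NHR-11. The genes were taken by name from the Ensembl annotation of Caenorhabditis elegans: every protein-coding gene whose symbol starts with hlh-, zip-, mxl-, atf- or crh-, without hlh-1, together with mdl-1, skn-1, xbp-1, ces-2, sbp-1, hif-1, aha-1, lin-32 and ngn-1. That gave 55 of 19973 protein-coding genes, of which 33 encode bHLH and 22 encode bZIP proteins. A gene counted as having a peak where a peak summit lay in its promoter window, from 1000 bp upstream to 200 bp downstream of the annotated gene start, or anywhere inside the gene.

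The study measured binding of eGFP-tagged NHR-11 by chromatin immunoprecipitation and sequencing (ChIP-seq) in fourth-stage (L4) larvae of mixed sex. All animals were of strain OP305, which carries unc-119(ed3) on chromosome III and the insertion wgIs305 that targets nhr-11, so every sample shares the unc-119 allele and the tagged transgene. Biological replicates 1 and 2 form the only group, and no untagged, input or wild-type sample was used here. Whole larvae were profiled, so a peak cannot be assigned to a tissue, and the labels do not state what drives the transgene. The lists hold no read counts, the depth is therefore unknown, and a gene without a listed peak was not shown to be unbound.

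Transcription factors of the bHLH class bind DNA as dimers at E-boxes, short sites with the letters CANNTG, and in animals they specify neurons, muscle and mesoderm or, in the leucine zipper group, control growth, lipid and lysosome genes. Factors of the bZIP class also bind as dimers, and they are known for responses to oxidative stress, unfolded protein, amino acid shortage and infection. NHR-11 belongs to the nuclear hormone receptors, a family much expanded in nematodes.

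The authors deposited a list of 13558 peaks called on both replicates together (the pooled list), one list for each replicate with 19074 peaks (replicate 1) and 22137 peaks (replicate 2), and a thresholded list of 2719 peaks. The thresholded list is the part of the pooled list with a signal of 54.9 or more. The signal is the authors' own value for a peak, on a scale that is not stated, and it served here to describe and rank peaks within one list.

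In the thresholded list, 15 of the 55 bHLH and bZIP genes (27.3%, 95% Clopper-Pearson interval 16.1 to 41.0) had a summit in the promoter window or inside the gene, against 10.6% of all protein-coding genes. With the promoter window alone, 10 of 55 genes (18.2%, interval 9.08 to 30.9) had one, against 8.28% of all protein-coding genes. In the pooled list, 28 of 55 (50.9%, interval 37.1 to 64.6) had one in the promoter or gene, against 36.3%. The replicate 1 list held a summit for 33 of 55 (60.0%, interval 45.9 to 73.0), against 47.1%, and the replicate 2 list for 31 of 55 (56.4%, interval 42.3 to 69.7), against 50.8%. Both replicate lists held one for 26 of 55 (47.3%, interval 33.7 to 61.2), against 35.6% of all protein-coding genes. For this count, the summits of the 2 lists did not have to lie at the same place in a gene. The share among bHLH and bZIP genes was thus above that of all genes in each list, with intervals that leave out the background share for both thresholded counts and for the pooled list, and include it for the 2 single replicate lists and for both together. The interval also includes it for the promoter count with replicate 1 alone (9 of 55, lower bound 7.77, against 8.04%) and for the pooled count with replicate 2 alone (26 of 55, lower bound 33.7, against 36.3%) or a window reaching 2000 bp upstream (29 of 55, lower bound 38.8, against 42.7%). The intervals cover the number of genes only, and genes are not replicates, so no test was made.

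By family, the share with a thresholded summit among bZIP genes was 10 of 22 (45.5%, interval 24.4 to 67.8) and among bHLH genes 5 of 33 (15.2%, interval 5.11 to 31.9). Within the bHLH class, 4 of 7 leucine zipper genes had one (57.1%, interval 18.4 to 90.1), as did 1 of 3 genes of the PAS group. None of 17 cell-fate bHLH genes (interval up to 19.5%) and none of the 5 REF-1 family genes with hlh names (interval up to 52.2%) had one, and hlh-33, which belongs to none of these groups, had no summit in any list. The 17 leave out hlh-1, a MyoD homologue of body wall muscle, which had thresholded summits with signals of 81.5 and 62.4. Within the bZIP class, 4 of 7 CREB and ATF genes, 2 of 3 stress and other named genes and 4 of 12 genes with zip names had one. The bZIP and bHLH intervals overlap, as do those of the small families, and the difference was not tested. The intervals of the bHLH class and of its cell-fate, PAS and REF-1 genes include the 10.6% of all protein-coding genes. So do those of the stress and other named genes (9.43 to 99.2) and of the genes with zip names (9.92 to 65.1).

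**Figure D1:**
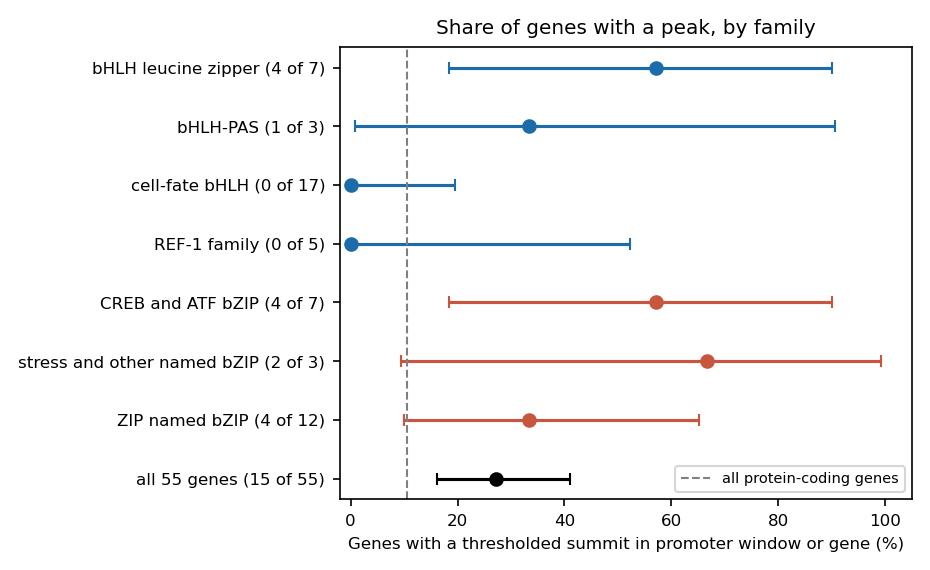
Share of genes with a thresholded summit in the promoter window or gene (x axis, percent) for each family of bHLH (blue) and bZIP (red) genes and for all 55 (black), with 95% Clopper-Pearson intervals as bars. The dashed line is the 10.6% of all protein-coding genes, and the cell-fate (without hlh-1) and REF-1 families stand at 0.

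The 55 genes had 27 thresholded summits in their windows, spread over 15 genes, and 88 pooled summits. Of the 27, 11 lay in promoter windows and 16 deeper in the gene. By annotation, 9 lay upstream of the gene, 17 in introns and 1 in a 5′ UTR, and none lay in a coding exon. These places were not counted over all thresholded peaks. The signal of the 27 ranged between 55.7 and 260 with a median of 102, against a median of 83.9 for all 2719 thresholded peaks. Among the strongest 679 of the 2719 were 8 of the 27, which is near the share that the 679 make up of all thresholded peaks. Each of the 27 peaks was 376 bp wide. Coordinates are in build ce11, counted from 1, and distances are from the annotated gene start with negative values upstream.

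**Figure D2:**
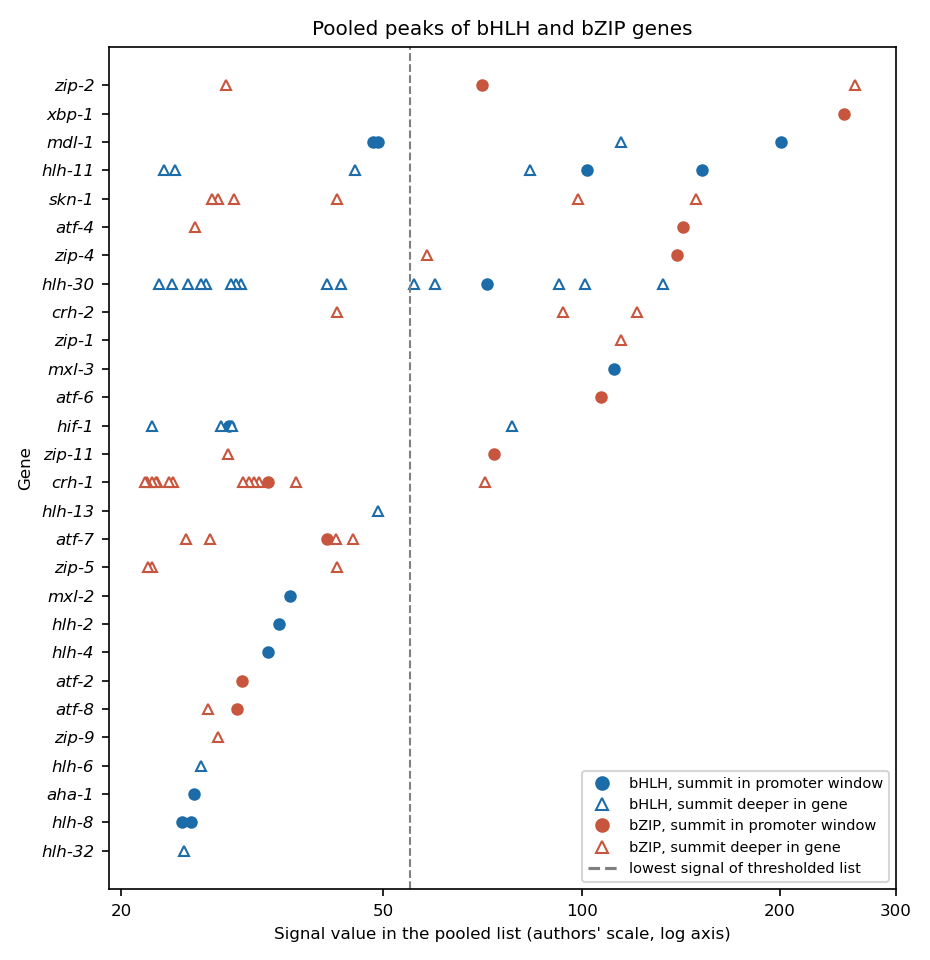
Pooled signal (x axis, the authors' scale, logarithmic) of every pooled summit of the 28 bHLH and bZIP genes that have one (y axis, genes by their strongest summit), with circles for promoter windows, triangles for summits deeper in the gene, blue for bHLH and red for bZIP. The dashed line is the lowest thresholded signal, 54.9, and 15 genes have a summit to its right.

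The bHLH leucine zipper genes held 12 of the 27 thresholded summits. mdl-1 encodes a Mad family factor, in mammals a partner of Max that opposes Myc. Its promoter summit at −56 (chrX:6742295) had a pooled signal of 200.5, rank 204 of the pooled list. The replicates gave this peak signals of 117 (replicate 1) and 83.8 (replicate 2), on ranks 125 and 343 of their own lists. A further summit at +690, in an intron, had 115, with 65.8 in replicate 1 and 52.7 in replicate 2. Replicate 1 gave the higher signal at both mdl-1 peaks. mxl-3, of the Max family and known in worms for control of lipase genes during feeding, had a single thresholded summit at −314 (chrX:13351118) with a pooled signal of 112. Its replicate signals were 37.4 in replicate 1 and 78.1 in replicate 2, so replicate 2 was 2.09 times replicate 1, outside the 5th to 95th percentile range of that ratio over all thresholded peaks (0.594 to 1.83). The annotated noncoding gene C49F8.5 covers this summit.

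hlh-11, homologous to the mammalian TFAP4, had 3 thresholded summits, at −443 (chrIII:9619268, signal 152), −235 (102) and +740 in an intron (83.6). The peaks at −443 and −235 overlap, so they are not separate regions. In replicate 1 the signals of the 3 peaks were 74.4, 49.7 and 37.6, and in replicate 2 they were 77.4, 54.4 and 45.8, in the same order. hlh-30, the homologue of mammalian TFEB, a master regulator of lysosome and autophagy genes, had 6 thresholded summits along a 20159 bp gene. The strongest stood at +14920 (chrIV:4020031) with a signal of 133, and the others had 101 at +10631, 92.3 at +12401, 71.9 at −97, 59.9 at +6611 and 55.7 at +10346, of which those at +10631 and +10346 overlap. The replicates gave the strongest 64.1 (replicate 1) and 65.3 (replicate 2), and the start-proximal peak at −97 25.8 (replicate 1) and 44.3 (replicate 2). The peak at +10631 had 46.0 in replicate 1 and 53.8 in replicate 2, that at +12401 had 46.9 and 45.0, that at +6611 24.3 and 33.7, and that at +10346 31.3 and 22.5, with replicate 1 first. The order of the 6 peaks by signal thus differed between the replicates below the strongest. In replicate 1, the hlh-30 peaks at +6611 and −97 were the weakest of the 27. The summit at +14920 is closer to the start of W02C12.2, at 12058 bp, than to the annotated start of hlh-30, and it lies inside the noncoding gene W02C12.4, while an inner hlh-30 transcript starts 987 bp downstream of it. Of the other members of the family, mxl-2 had only weaker pooled peaks, mxl-1 had none in any list, and sbp-1, homologous to mammalian SREBP and required for lipid synthesis, had only low peaks of the replicate lists.

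**Figure D3:**
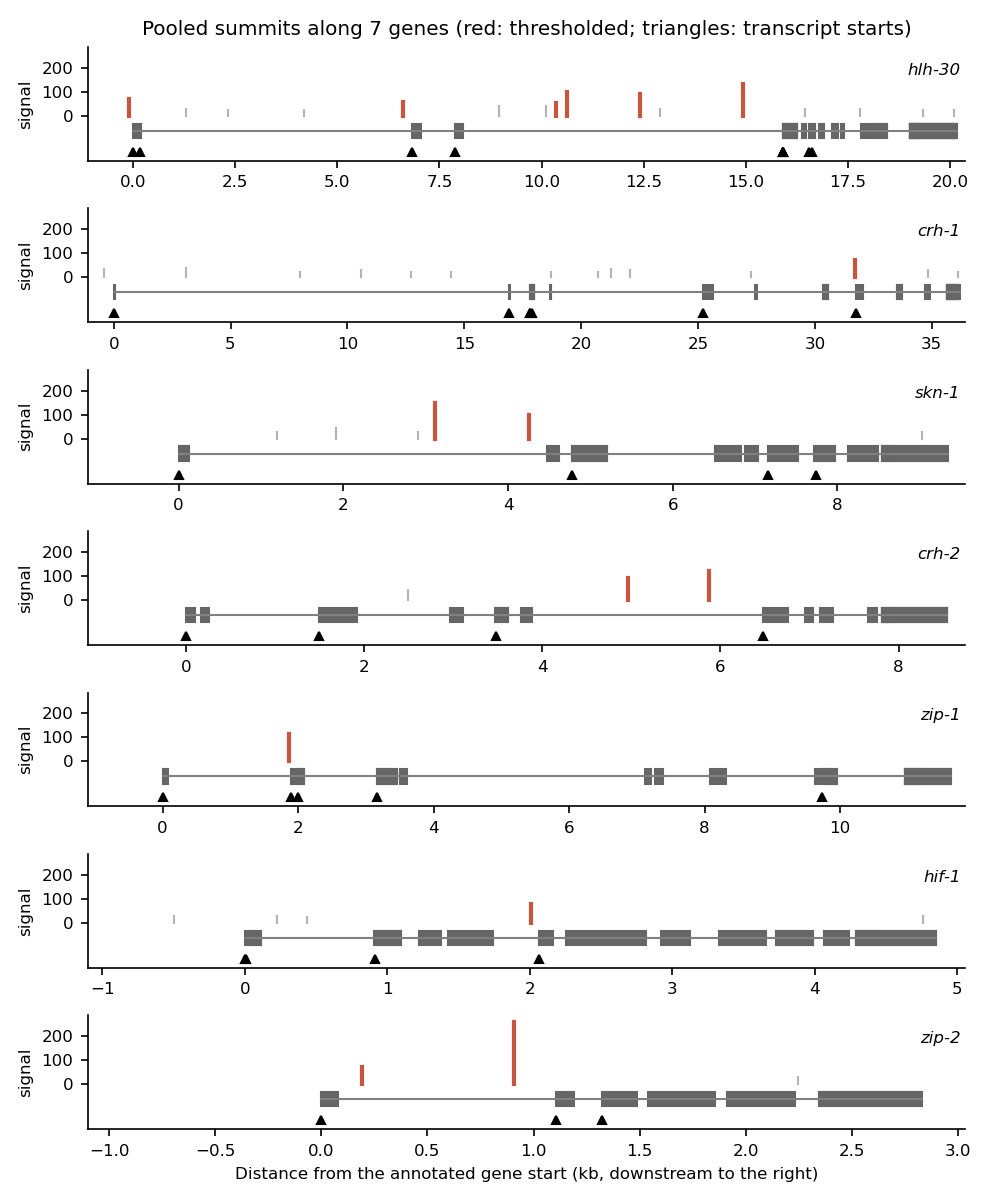
Pooled summits along 7 bHLH and bZIP genes (x axis, kb from the annotated gene start; bar height, pooled signal), with thresholded summits in red, other pooled summits in grey, exons as boxes and transcript starts as triangles. The thresholded summits of crh-1, zip-1 and hif-1 stand 21, 36 and 53 bp upstream of an inner transcript start.

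Sequences of the summit regions show which letters stand at the peaks the counts rest on. They are read 5′ to 3′ along the gene's strand from the RefSeq genome sequence of ce11, with the summit at base 51, and capitals mark the letters of the motifs described further on. For mdl-1 and hlh-30 the capitals are the TCTCTC form of the GA repeat, and for hlh-11 3 E-boxes. The mxl-3 stretch is shown because it holds none of the motifs searched.
mdl-1, chrX:6742245-6742345, plus strand: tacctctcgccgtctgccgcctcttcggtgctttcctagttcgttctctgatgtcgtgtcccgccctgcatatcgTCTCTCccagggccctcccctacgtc
mxl-3, chrX:13351068-13351168, minus strand: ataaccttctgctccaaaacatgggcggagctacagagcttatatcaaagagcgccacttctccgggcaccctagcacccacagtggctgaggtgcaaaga
hlh-11, chrIII:9620401-9620501, plus strand: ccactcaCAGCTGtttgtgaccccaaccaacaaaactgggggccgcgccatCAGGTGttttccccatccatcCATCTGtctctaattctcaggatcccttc
hlh-30, chrIV:4019981-4020081, minus strand: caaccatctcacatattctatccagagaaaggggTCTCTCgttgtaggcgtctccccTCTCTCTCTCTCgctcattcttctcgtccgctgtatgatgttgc

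In the PAS group, hif-1, the hypoxia-inducible factor that the oxygen sensor EGL-9 controls, had a single thresholded summit at +2012 (chrV:20782419), in an intron. Its pooled signal was 78.5, with replicate signals of 35.8 (replicate 1) and 40.8 (replicate 2). The start of one of its other annotated transcripts lies 53 bp downstream of the summit. aha-1, its dimer partner, had no thresholded summit. It had a pooled signal of 25.8 and 15.1 in replicate 1, and none in replicate 2. Its pooled summit, at −190, is closer to the start of C25A1.15, at 134 bp.

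Among the stress genes, xbp-1, of the unfolded protein response, had the second strongest of the 27 peaks. Its summit at −2 (chrIII:4193807) had a pooled signal of 250 (rank 100), with 113 in replicate 1 and 142 in replicate 2. skn-1, the Nrf homologue that drives oxidative stress genes and specifies early embryonic cells, had 2 thresholded summits in introns, at +3116 (chrIV:5657268) with a signal of 149 and at +4258 with 98.7. At +3116 the signal was 67.3 in replicate 1 and 85.7 in replicate 2, and at +4258 it was 48.5 in replicate 1 and 50.1 in replicate 2. A transcript of skn-1 starts 521 bp downstream of the summit at +4258, and the nearest protein-coding start from the gene annotation is that of clec-178, at 2177 bp. ces-2, of the PAR group, a regulator of a neuron's programmed death, was in the replicate 1 list only, with a signal of 17.5.

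For these stress and hypoxia genes the sequences are given to show the repeat beside xbp-1 and in skn-1, and, in hif-1, an E-box, a GA repeat and the half-site of the cAMP response element, read as CGTCA, in a single window. UTR bases were left out, which is why the xbp-1 stretch is shorter.
xbp-1, chrIII:4193757-4193808, plus strand: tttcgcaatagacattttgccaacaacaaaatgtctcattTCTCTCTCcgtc
skn-1, chrIV:5656076-5656176, minus strand: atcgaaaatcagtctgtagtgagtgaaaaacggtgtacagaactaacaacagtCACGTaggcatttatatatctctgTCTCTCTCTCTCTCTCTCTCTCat
hif-1, chrV:20782369-20782469, plus strand: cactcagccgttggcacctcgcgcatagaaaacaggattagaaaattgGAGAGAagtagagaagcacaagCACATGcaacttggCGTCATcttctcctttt

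All 7 CREB and ATF genes had a pooled summit, against 36.3% of all protein-coding genes, and a summit in both replicate lists, against 35.6%. Of the 7, 4 (atf-4, atf-6, crh-1 and crh-2) had a thresholded one. atf-4, homologous to mammalian ATF4 of the amino acid and translation stress response, had a summit at −119 (chrX:14810929) with a pooled signal of 142, 74.0 in replicate 1 and 68.7 in replicate 2. This summit also lies in the promoter window of WBGene00303075, whose start is 125 bp away. atf-6, of the unfolded protein response in mammals, had a summit at −275 (chrX:12480673) with a pooled signal of 107, 64.3 in replicate 1 and 49.98 in replicate 2. crh-2, a CREB3 relative, had 2 summits in introns, at +5872 (chrII:5181697) with a signal of 122 and at +4966 with 93.6. Its replicate signals at +5872 were 49.97 (replicate 1) and 71.7 (replicate 2), and at +4966 they were 42.9 and 53.2, so replicate 2 was higher at both. Both summits are closer to the start of C27D6.12 than to that of crh-2, at 3695 bp from the +5872 summit and 4601 bp from the +4966 summit. crh-1, the CREB homologue of memory and metabolism studies, had a summit at +31724 (chrIII:11689491) in an intron of a 36215 bp gene, with a pooled signal of 71.3, 34.7 in replicate 1 and 33.0 in replicate 2. A crh-1 transcript starts 21 bp downstream of that summit, and the nearest start of another gene, Y41C4A.22, is 5784 bp away.

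Of the genes with zip names, zip-2, known in worms for a response to translation block during infection, had the strongest peak of the 27. Its summit at +906 (chrIII:833888), in an intron, had a pooled signal of 260 (rank 88), with 134 in replicate 1 and 126 in replicate 2. The noncoding gene K02F3.15 lies 279 bp from this summit. The second zip-2 summit, at +191, had 70.6, with 36.2 in replicate 1 and 37.1 in replicate 2. It lies inside the noncoding gene linc-37 and also in the promoter window of ceeh-1. zip-4 had summits at −5 (signal 139, with 70.1 and 73.5 in replicates 1 and 2) and at +693 (58.2, with 28.5 and 27.6). The first is shared with the promoter window of nol-58, whose start is 327 bp away. zip-1, a factor of the intracellular pathogen response, had a summit at +1862 (chrIII:12335607) with a signal of 115, 63.5 in replicate 1 and 51.4 in replicate 2, and a zip-1 transcript starts 36 bp downstream of it. zip-11 had the only 5′ UTR summit, at +66 (chrIV:3311342), with a pooled signal of 73.6, 33.8 in replicate 1 and 40.8 in replicate 2.

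The crh-2 and zip-2 stretches are given because they carry E-boxes, and the crh-2 one the half-site of the cAMP response element (TGACG, in capitals on either strand) and the letters CACGT. The zip-1 stretch, which ends where a UTR begins, carries the GA repeat.
crh-2, chrII:5182553-5182653, minus strand: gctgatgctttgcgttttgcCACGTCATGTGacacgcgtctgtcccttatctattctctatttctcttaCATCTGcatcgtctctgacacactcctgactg
zip-2, chrIII:833838-833938, plus strand: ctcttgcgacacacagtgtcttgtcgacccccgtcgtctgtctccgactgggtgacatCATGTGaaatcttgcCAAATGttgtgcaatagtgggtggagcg
zip-1, chrIII:12335557-12335642, plus strand: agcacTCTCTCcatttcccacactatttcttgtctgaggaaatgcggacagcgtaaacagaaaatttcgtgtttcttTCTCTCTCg

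A further 13 genes had summits in the pooled list but none in the thresholded list, and each of them also had a summit in at least 1 replicate list. The same count was not made over all protein-coding genes, so it shows no trait of these families. hlh-13, of the Ptf1a family, had the highest, 49.1 at +1459 in the 3′ UTR, with 17.8 in replicate 1 and 29.9 in replicate 2. atf-7, an ATF homologue of the p38 innate immune pathway, had 5 pooled summits, the strongest 45.0 at +4236 with replicate signals of 24.0 and 26.8. zip-5 had 42.6, mxl-2 36.1, hlh-2 (the common dimer partner of tissue-specific bHLH factors) 34.8, hlh-4 33.4, atf-2 30.5, atf-8 29.9, zip-9 28.04, hlh-6 26.4, aha-1 25.8, hlh-8 (a Twist homologue of the mesoderm) 25.6 and hlh-32 24.9. Within these strongest peaks, the replicate 1 and replicate 2 signals were 23.4 and 18.0 at zip-5, 15.8 and 21.0 at mxl-2, 25.1 and 10.01 at hlh-2, 15.7 and 13.5 at hlh-4, 12.1 and 16.7 at atf-2, and 12.4 and 10.9 at hlh-32. Replicate 1 alone had a summit in the peaks of hlh-6 (18.5) and aha-1 (15.1), and replicate 2 alone in those of atf-8 (11.4) and zip-9 (16.1). The weaker pooled peak of atf-8, at +203 with 27.1, held 18.4 in replicate 1 and 9.65 in replicate 2. The strongest hlh-8 peak had no summit of either replicate list within it. The mxl-2 summit, at −484, is closer to the start of ubc-20, at 223 bp. Likewise, the aha-1 summit is closer to the start of C25A1.15 and the strongest atf-7 summit to that of C07G2.5. Among cell-fate bHLH genes, 6 of 17 had a pooled summit, a share near the 36.3% of all protein-coding genes. The pooled list reaches down to a signal of 21.6, so several of these stand near its lower end.

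Only replicate lists held a summit for 10 genes. Replicate 1 alone listed ces-2, hlh-14, ngn-1, zip-3 and zip-7, with strongest signals of 10.96 to 17.5. Replicate 2 alone listed hlh-12, hlh-19, zip-6 and zip-8, with 9.33 to 15.4. sbp-1 was in both, but its strongest summits lay at different places, at +3374 with 11.7 in replicate 1 and at +1261 with 11.3 in replicate 2. The lowest signals of the lists are 10.6 in replicate 1 and 9.13 in replicate 2. In replicate 1 these genes ranked between 6325 (ces-2) and 17917 (ngn-1) of 19074, and in replicate 2 between 7877 (zip-6) and 21282 (hlh-19) of 22137. No list held a summit for 17 genes: hlh-3, hlh-10, hlh-15, hlh-16, hlh-17, hlh-25, hlh-26, hlh-27, hlh-28, hlh-29, hlh-31, hlh-33, hlh-34, lin-32, mxl-1, zip-10 and zip-12. The 5 REF-1 family genes with hlh names (hlh-25 to hlh-29), which encode paired bHLH domains, are among them. The family's namesake ref-1, which the naming rule leaves out, had a pooled summit at −332 with a signal of 24.1, and 16.3 in replicate 2. The counts of 10 genes in replicate lists only and of 17 in no list were not made over all protein-coding genes.

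Part of these windows is repeated sequence, in which reads can be hard to place. The share of 31-base words that occur elsewhere in the genome was 81.1% for hlh-28, 80.6% for hlh-29, 48.9% for hlh-27, 48.5% for sbp-1 and 48.3% for hlh-25. Over 20% of words were repeated in 5 of the 55 genes, and 4 of these had no summit. The median was 0.656% in the genes with no summit and 0.190% in those with a thresholded one. The part of repeated sequence in the missing peaks was not tested.

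Longer genes held a thresholded summit more often. The bHLH and bZIP genes have a median length of 1914 bp, against 2027 bp over all protein-coding genes, and those with a thresholded summit have 3957 bp, against 1641 bp for those without. bZIP genes had a median of 3349 bp and bHLH genes 1504 bp. In each length class the share with a thresholded summit was above that of all genes: 5 of 30 up to 2000 bp against 7.27%, 4 of 15 between 2000 and 5000 bp against 11.3%, 3 of 6 between 5000 and 10000 bp against 16.4%, and 3 of 4 above 10000 bp against 26.3%. Per 100 kb of window, the genes had 9.94 thresholded summits, against 2.94 over all protein-coding genes. The classes hold few members and no intervals were set on their shares, so these counts do not show an excess in each class. The part of length in the family difference was not tested. The bHLH and bZIP classes had similar densities, 10.3 and 9.64 summits per 100 kb. Of the 13 bHLH summits, all but that of hif-1 lay in leucine zipper genes, 6 of them in hlh-30. Summits of overlapping peaks were counted separately in these densities.

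Of the 16 summits deeper in a gene, 9 (56.3%), in 8 genes, lay in the promoter window of another annotated transcript start of that gene. Over all protein-coding genes this held for 231 of 789 thresholded summits deeper in a gene (29.3%), counting a summit once for each gene it lies in. Among these summits, the +906 summit of zip-2 lay 200 bp upstream of a transcript start, the +5872 summit of crh-2 608 bp upstream and the +6611 summit of hlh-30 213 bp upstream. The bHLH and bZIP genes with deeper summits have between 1 (mdl-1) and 13 (hlh-30) annotated transcripts. The median over all protein-coding genes is 1, and the part of transcript number in these shares was not tested. For 22 of the 27 thresholded summits the gene's own annotated start was the nearest start of a protein-coding gene, and for 5 it was another gene's. A noncoding gene lay within 500 bp of 6 of the 27. These were both zip-2 summits, the mxl-3 summit, and those at +14920 of hlh-30, +3116 of skn-1 and +5872 of crh-2. The counts of nearest starts and of noncoding genes were not made over all thresholded peaks.

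**Figure D4:**
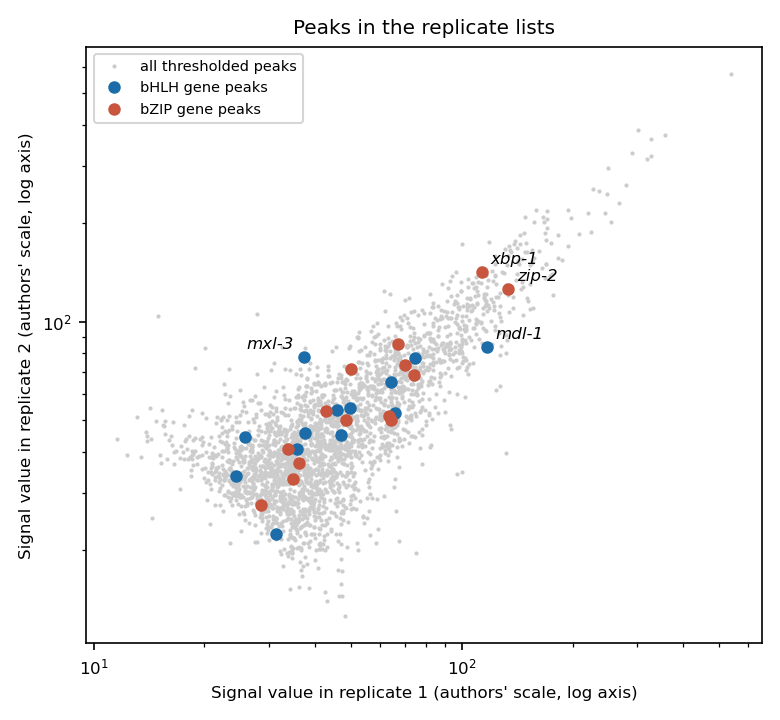
Signal of the thresholded peaks in replicate 1 (x axis) and replicate 2 (y axis), on the authors' scale and log axes, for peaks of bHLH genes (blue), of bZIP genes (red) and for all thresholded peaks (grey). The peaks lie within the grey cloud, and mxl-3, with 37.4 in replicate 1 and 78.1 in replicate 2, is toward its upper left edge.

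The replicates listed the same 27 peaks. All 27 held a summit of both full replicate lists, and 23 (85.2%) held one of the 2719 strongest peaks of each replicate, against 73.0% of all thresholded peaks. Of the other 4 peaks, 2 were that strong in replicate 1 only and 2 in replicate 2 only. Median ranks were 1039 in replicate 1 and 942 in replicate 2. The thresholded list was derived using both replicate lists, so the peaks were chosen in part for appearing in both. The ratio of replicate 2 to replicate 1 signal had a median of 1.04 with a range of 0.717 to 2.09, and mxl-3 was at its upper end.

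Motifs were counted on both strands within 50 bp of each summit, and a match describes letters only. The GA repeat GAGAGA occurred at 14 of the 27 peaks (51.9%, interval 31.9 to 71.3), in 8 genes, against 30.4% of all thresholded peaks and 13.1% of the weaker pooled peaks. It stood at 10 of the 16 deeper summits and 4 of the 11 promoter summits. This split was not counted over all thresholded peaks, and several of the 10 lie in hlh-30. The E-box CANNTG, which includes CACGTG, occurred at 6 of 27 (22.2%, interval 8.62 to 42.3), against 43.5%. CACGTG, the form bound by Max and TFEB homologues, occurred at none (interval up to 12.8%), against 5.99%. ACGTG, the core of the hypoxia element and part of CACGTG, was at 5 of 27 (18.5%), against 17.4%.

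TGACG, the half-site of the cAMP response element, was at 8 of 27 (29.6%, interval 13.8 to 50.2), against 19.3%, and the whole element TGACGTCA at none, against 1.07%. TGANTCA, the AP-1 type site, was at 1 of 27 (3.70%), against 2.80%, and GTCAT, the core of the SKN-1 site, at 4 of 27 (14.8%), against 16.1%. AGGTCA, the half-site of many nuclear receptors, was at 1 of 27 (3.70%), against 2.65%. Of the 9 motifs, the E-box is the only one whose interval for the 27 peaks leaves the share of all thresholded peaks above it, and GAGAGA the only one whose interval leaves it below. The intervals treat the 27 peaks as separate observations, although 6 of them lie in hlh-30. Of those in hlh-30, only the peak at +12401 lacks GAGAGA, and the shares were not recounted by gene. These contrasts also depend on the window. Within 100 bp the GAGAGA share was 63.0% (interval 42.4 to 80.6), against 47.6%, and the interval includes the background. Within 100 bp the E-box share was 37.0% (interval 19.4 to 57.6), against 65.1%, but over the whole peak its interval also includes the background. No motif was found at 4 of the 27 peaks. G and C made up a median of 48.5% of the 101-bp windows, against 46.5% over all thresholded peaks.

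**Figure D5:**
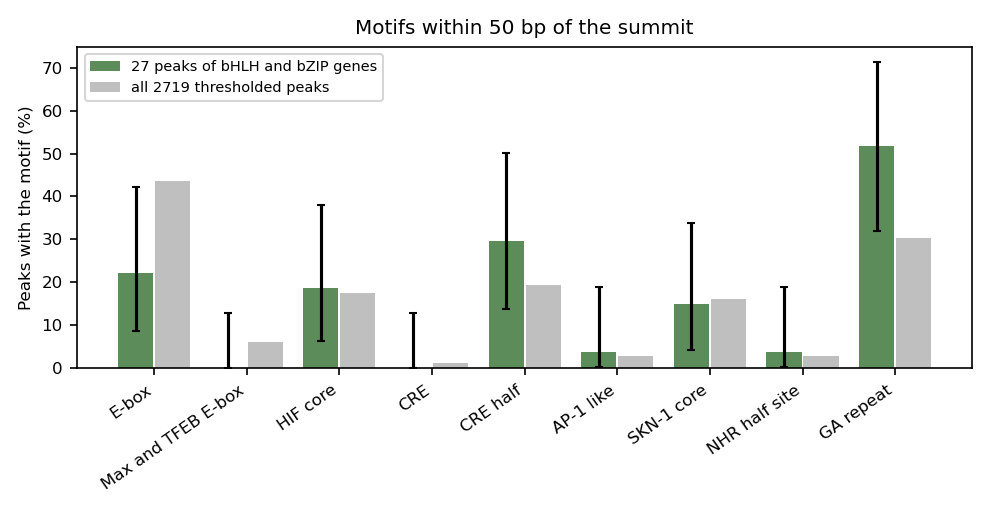
Share of peaks with each of 9 motifs within 50 bp of the summit (y axis, percent), for the 27 peaks of bHLH and bZIP genes (green, with 95% Clopper-Pearson intervals) and all 2719 thresholded peaks (grey). The GA repeat stands at 51.9% against 30.4%, and the E-box at 22.2% against 43.5%.

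Genes close to these families by function were counted alongside. Of 13 further bHLH and bZIP genes that the naming rule leaves out, 4 had a thresholded summit in the promoter or gene (jun-1, cebp-1, hlh-1 and cebp-2) and 8 a pooled one, against 10.6% and 36.3% of all protein-coding genes. The interval of the 4 of 13 (9.09 to 61.4) includes the 10.6%. jun-1, the Jun homologue, had the strongest, at −101 with a signal of 224 (replicate 1 110, replicate 2 113), and 3 intron summits of 87.6, 70.9 and 58.0. cebp-1, which acts in axon regeneration, had 209.5 at −699, with 110 in replicate 1 and 101 in replicate 2. hlh-1, the MyoD homologue of body wall muscle, had 81.5 at −110 and 62.4 at +1856 in an intron, and cebp-2 had 81.0 at −108. Of 16 genes of regulators and cofactors of these factors, 6 had a thresholded summit (interval 15.2 to 64.6), against 10.6% of all protein-coding genes. In the promoter window 5 had one, against 8.28%, and 10 had a pooled one (interval 35.4 to 84.8), against 36.3%. wdr-23, which targets SKN-1 for degradation, had 196 at −89, with 93.7 in replicate 1 and 102 in replicate 2. A further thresholded wdr-23 summit, at +2434 in an intron, had 85.8. cmk-1, a kinase upstream of CREB, had 82.5 at −209 and 58.9 at +2381 in an intron. xpo-1, the nuclear exporter, had 75.7 at −466 (closer to the start of uvs-1), and pek-1, the PERK kinase, 67.0 at −417. cysl-1, a regulator of EGL-9, had 65.6 at −338, and let-363, the TOR kinase, 65.3 at +15979 in an intron (closer to the start of vep-1). Both lists were compiled with earlier results of these data known.

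The insertion targets nhr-11 and the strain carries an unc-119 allele. No bHLH or bZIP gene lay within 50 kb of nhr-11 or unc-119, and the nearest member was 590557 bp from nhr-11 and 519432 bp from unc-119. On chromosome III, 5 of 12 genes had a thresholded summit in the promoter or gene, against 14.4% of all genes there, and on X, 4 of 11 against 12.05%. Chromosomes IV (3 of 10, against 9.17%), II (1 of 9, against 10.7%) and V (1 of 8, against 6.91%) held the others besides zip-4.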

How the data were processed

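NHR-11-eGFP ChIP-seq peak lists of 2 biological replicates were used as deposited by the authors, in build ce11. Each peak's deposited signal is the authors' value on a scale that is not stated, and the deposited −log10 q values, which the authors gave for each peak, reach a maximum of 3.52 shared by 1675 thresholded peaks, so signal was used for ranks. The thresholded list came from the pooled and replicate lists by irreproducible discovery rate, per the texts deposited with the files, and the replicate and pooled lists were called with a further file whose role is not stated. Aligner, peak caller, their versions and that rate's cutoff: not given in the sources used here. The settings of the calling decide how many weak peaks a list holds, and so the counts.

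Summits were assigned to Ensembl release 115 genes (WBcel235, the sequence of ce11, 6 chromosomes) with Python 3.11.15, numpy 2.4.6, pandas 2.3.3, scipy 1.17.1 and matplotlib 3.10.9, and the assignment was tested on simulated peaks. A replicate signal is that of the replicate's strongest peak with its summit inside the pooled peak. Intervals are exact Clopper-Pearson at 95% and cover counting error only. No groups exist, so nothing was tested. Named are all members with a thresholded or pooled summit, those in replicate lists only or in none, and the genes of the other lists with a thresholded summit. Members and lists were chosen with earlier results of these data known. Lists in ce10 were not used here. Alternatives tried were other windows, all transcript starts, stronger peaks, each replicate alone and other motif windows.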

Additional observations from a re-analysis of the deposited data

How the results depend on the processing

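Counts of bHLH and bZIP genes kept within 1.5 times their main value under 27 of 28 alternatives. Some of these alternatives could hardly move a count. With gene bodies included, the starts of all annotated transcripts gave the main counts of 15 and 28 again. The middle of the peak in place of the summit also left each count as it was. The promoter count of 15 with all transcript starts, against 10, stood at the limit of 1.5 times. The exception to the 27 was the count with a summit in both replicate lists, which was 15 (1650 over all protein-coding genes) when each replicate list was limited to as many of its strongest peaks as the thresholded list holds, against 26. With as many of the remaining replicate's strongest peaks in place of each list, the promoter count was 10 without replicate 1 (8.26% of all genes) and 9 without replicate 2 (8.04%, inside the interval of 7.77 to 28.8), and the promoter or gene count was 16 without replicate 1 (10.6%) and without replicate 2 (10.5%). All 15 genes remained in both, joined by hlh-13 without replicate 1 and by atf-7 without replicate 2. Pooled counts were 26 without replicate 1 (36.3%, inside the interval of 33.7 to 61.2) and 28 without replicate 2 (36.7%). The promoter count ranged between 7, in the stronger part of the list, and 15, with the starts of all annotated transcripts, the promoter or gene count between 12 and 16, and the pooled count between 21 and 30.

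With motifs counted over the whole peak, the E-box was at 66.7% of the 27 peaks (80.8% of all thresholded peaks, inside the interval of 46.0 to 83.5), ACGTG at 40.7% (40.9%), GTCAT at 40.7% (45.8%) GAGAGA at 77.8% (57.82%, inside the interval of 57.74 to 91.4) and CACGTG at 11.1% (13.2%). No paired analysis was possible because the series has 1 group and no result comes from a test. With no control sample and unknown depth, absence from a list is no measure of binding.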
